A study of Mus musculus with 15 samples.

Results

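The mouse mitochondrial genome carries 37 genes, and all 37 had a row among the 54232 genes of the count table, found by gene symbols that begin with mt-. They comprise 13 mRNA genes, 2 rRNA genes and 22 tRNA genes. Striatal RNA of 15 mice, all 6 months old, was sequenced in the genotypes KI-96 (n = 4), E1 (n = 4) and WT (n = 7), and each library is a different mouse. The study's title speaks of knock-in mice of Huntington's disease and of toxicity by RAN, a form of translation of repeat RNA that needs no start codon. KI-96 and E1 are genotype names that the labels leave undescribed, and the sex, the strain, the repeat length, the kind of library, its strandedness and the read length are not stated in the labels. No drug or other treatment is named for any group.

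Mitochondria keep a small circular genome of their own, transcribed from both strands into long precursors that are cut at the tRNAs between the genes. Its mRNAs encode core subunits of respiratory complexes I, III and IV and of the ATP synthase. The other subunits and the proteins of replication, transcription, RNA processing and translation are encoded in the nucleus. Striatal neurons have a high demand for ATP, and respiratory chain function in the striatum has long been studied in Huntington's disease.

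Several mitochondrial genes have near-identical copies in the nuclear genome, and the sequences below show how close these can be. Windows of 100 bases were taken along each mitochondrial transcript and looked up in all other annotated transcripts, while unannotated sequence of the nuclear genome was not searched. mt-Co2, mt-Atp6, mt-Co3, mt-Nd3 and mt-Nd4l shared 99.5%, 99.5%, 99.9%, 97.6% and 98.5% of their windows with unprocessed pseudogenes that lie side by side on chromosome 1. mt-Nd4 shared 60.8%, mt-Co1 30.8% and mt-Nd2 3.19% of windows. mt-Rnr1, mt-Rnr2, mt-Nd1, mt-Atp8, mt-Nd5, mt-Nd6 and mt-Cytb shared 0 windows of 100 bases. With windows of 50 bases mt-Nd5 shared 7.61%, mt-Rnr2 1.04%, mt-Co1 51.1%, mt-Nd2 8.19% and mt-Nd4 62.2%, so what is shared depends on the window length, while mt-Rnr1, mt-Nd1, mt-Atp8, mt-Nd6 and mt-Cytb still shared 0. Reads from a shared window match both places equally well, so the counts of a gene and its copy are uncertain wherever they share sequence. The first 60 bases of mt-Nd3 (GRCm38, chrM:9459-9518, plus strand) and of its copy Gm28438 (chr1:24613060-24613119, minus strand) are shown because a single difference separates the genes over 345 aligned bases. It is T3C, counted from 1 at the first base of mt-Nd3, which is base 9461 of chrM, and it is set in capitals:
mt-Nd3: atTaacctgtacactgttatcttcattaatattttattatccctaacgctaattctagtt
Gm28438: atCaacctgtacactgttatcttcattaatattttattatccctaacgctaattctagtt
The start of mt-Nd4l (chrM:9877-9936, plus strand) is shown because its copy Gm10222 (chr1:24612641-24612700, minus strand) has the same letters, and the genes were identical over all 294 aligned bases:
mt-Nd4l: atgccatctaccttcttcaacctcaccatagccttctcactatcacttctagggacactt
Gm10222: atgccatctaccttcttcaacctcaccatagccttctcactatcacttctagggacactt
mt-Tp, the gene of mitochondrial tRNA proline (chrM:15356-15422, minus strand), is given whole because it was the only tRNA gene with any count:
mt-Tp: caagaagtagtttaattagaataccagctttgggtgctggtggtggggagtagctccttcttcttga
These letters come from the transcripts of GENCODE M21 on GRCm38.

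Some libraries stood apart. KI-96 replicate 3 had relatively more counts on long transcripts. Log2 levels were taken as deviations from the mean of all 15 libraries. The median deviation of genes with transcripts of at least 7423 bases, minus that of genes of at most 3176 bases, was 0.70. This value lay between -0.23 and 0.10 in the other 14 libraries. Protein-coding genes took 94.3% of counts in KI-96 replicate 3 and 96.5% to 97.2% in the other 14. Long intergenic non-coding RNA genes took 1.74% there and 1.05% to 1.32% in the others. WT replicates 5, 6 and 7 had totals of 23457270 to 26388542 counts, above the 17281603 to 18945441 of WT replicates 1 to 4; KI-96 libraries had 14678565 to 23373551 and E1 libraries 18199927 to 19533231. Cortical excitatory neuron markers summed to 1206 CPM in E1 replicate 2, 775 in E1 replicate 3 and 1074 in WT replicate 3, against 31.7 to 144 CPM in the other 12 libraries (CPM, counts-per-million on normalised library sizes). Striatal projection neuron markers were present in every library and summed to 4978 to 8145 CPM in KI-96, 6060 to 9355 in E1 and 5458 to 8791 in WT. The labels name no batch. In whole tissue, fewer cells of a type and less RNA per cell cannot be told apart.

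Together the mitochondrial genes took overlapping shares of all counts in the 3 genotypes. The share was 6.37%, 4.57%, 3.62% and 4.82% in the KI-96 libraries. It was 5.78%, 5.33%, 5.78% and 4.97% in the E1 libraries, and 4.68%, 5.47% and 5.84% (lowest, median, highest) in WT. KI-96 held both the highest and the lowest share of all 15 libraries, so its range enclosed those of E1 and WT.

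The group means were 4.85% ± 1.14 (SD, n = 4) in KI-96, 5.47% ± 0.393 (n = 4) in E1 and 5.33% ± 0.422 (n = 7) in WT. Without KI-96 replicate 3 the KI-96 mean was 5.25% ± 0.974 (n = 3). The difference in share for KI-96 against WT was -0.485 percentage points, and it was -0.0764 without KI-96 replicate 3 and -0.993 without KI-96 replicate 1. For KI-96 against E1 it was -0.620 percentage points, -0.212 without KI-96 replicate 3 and -1.13 without KI-96 replicate 1. Its size thus rested on single KI-96 libraries. The 2 rRNA genes made up 24.4% of mitochondrial counts in KI-96 replicate 3 and 13.2% to 18.4% in the other 14 libraries.

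**Figure D1:**
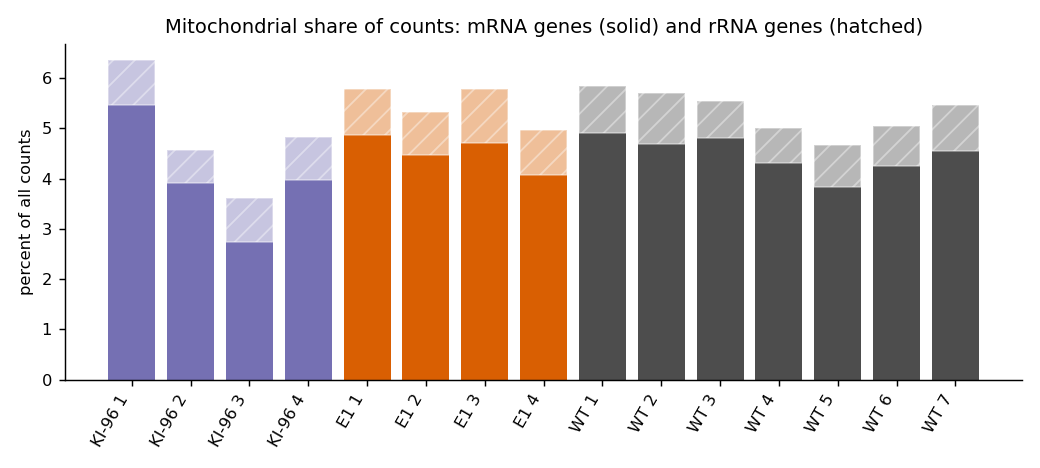
Share of all counts (percent, vertical axis) taken by mitochondrial mRNA genes (solid) and rRNA genes (hatched) in each library, KI-96, E1 and WT from left to right; the tRNA genes are too few to be seen. KI-96 replicate 1 has the highest share (6.37%) and KI-96 replicate 3 the lowest (3.62%).

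Of the 37 genes, 16 had a count in at least 1 library and 15 had counts in every library. These 15 passed the filter on low counts and were tested with edgeR among 18278 genes. mt-Atp8 had 0 to 13 counts and was not tested. The other 21 genes, all of them tRNA genes of 59 to 75 bases, had 0 counts in every library, which allows up to 3 counts each, or 0.114 to 0.204 CPM of total counts (counting error only).

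No mitochondrial gene passed the threshold (edgeR's quasi-likelihood test, Benjamini-Hochberg adjusted p under 0.05 over all genes) in any comparison. For KI-96 against WT the calls were 0 of 15, beside 0% of all genes tested. For E1 against WT they were 0 of 15, beside 0.00547% of all genes (1 of 18278). For KI-96 against E1 they were 0 of 15, beside 0% of all genes. At an unadjusted p under 0.05 edgeR had 1, 0 and 1 of the 15 in these comparisons, beside 10.5%, 8.75% and 14.3% of all genes. Without KI-96 replicate 1 this count was 3 of 15 for KI-96 against WT and 5 for KI-96 against E1, beside 1485 and 2217 of all 18656 genes. Without KI-96 replicate 3 it was 4 and 3, beside 2022 and 1856 of all 18539 genes. It was 4 for KI-96 against WT without WT replicates 5, 6 and 7, beside 738 of all 17809 genes. For E1 against WT it was 0 or 1 under every alternative, beside 765 to 2579 of all genes tested. limma-voom called 0 in each, beside 0%, 0.0109% and 0% of all genes. DESeq2 called 0, 0 and 1, beside 0.394%, 0.317% and 1.13% of all genes, and the 1 was mt-Nd4l in KI-96 against E1.

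The groups overlapped for all 15 genes in each comparison, where 1.31% of all genes had groups that did not overlap for KI-96 against WT, 1.71% for E1 against WT and 4.79% for KI-96 against E1. The median log2 fold change of the 15 genes was 0.02 for KI-96 against WT, 0.02 for E1 against WT and -0.11 for KI-96 against E1, while that of all genes tested was -0.01, -0.00 and -0.00. The median of the 15 genes turned with single libraries. For KI-96 against WT it was -0.12 without KI-96 replicate 1, 0.09 without replicate 2, 0.06 without replicate 3 and 0.03 without replicate 4. It was -0.04 to 0.05 with each WT library left out in turn. Against E1, KI-96 had a median of -0.30 without KI-96 replicate 1 and 0.05 without KI-96 replicate 3. Each comparison shares a group of libraries with each of the others.

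The rRNA and mRNA genes fell into 2 classes by their counts. Both rRNAs and 7 mRNAs (mt-Nd1, mt-Nd2, mt-Co1, mt-Nd4, mt-Nd5, mt-Nd6 and mt-Cytb) had at least 8000 counts in every library. The other 6 mRNAs (mt-Co2, mt-Atp8, mt-Atp6, mt-Co3, mt-Nd3 and mt-Nd4l) had at most 1000 counts in any library. The tRNA gene mt-Tp, with 718 to 2246 counts, lay between the classes. Apart from mt-Atp8, the low class was made of the genes that share nearly all their windows with pseudogenes on chromosome 1. The counts of these genes need not follow their RNA level, and abundant refers below to counts alone.

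For the 9 abundant genes the 95% intervals of the log2 fold change ran no further than -0.60 and 0.54 for KI-96 against WT, -0.52 and 0.49 for E1 against WT, and -0.69 and 0.73 for KI-96 against E1.

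**Figure D2:**
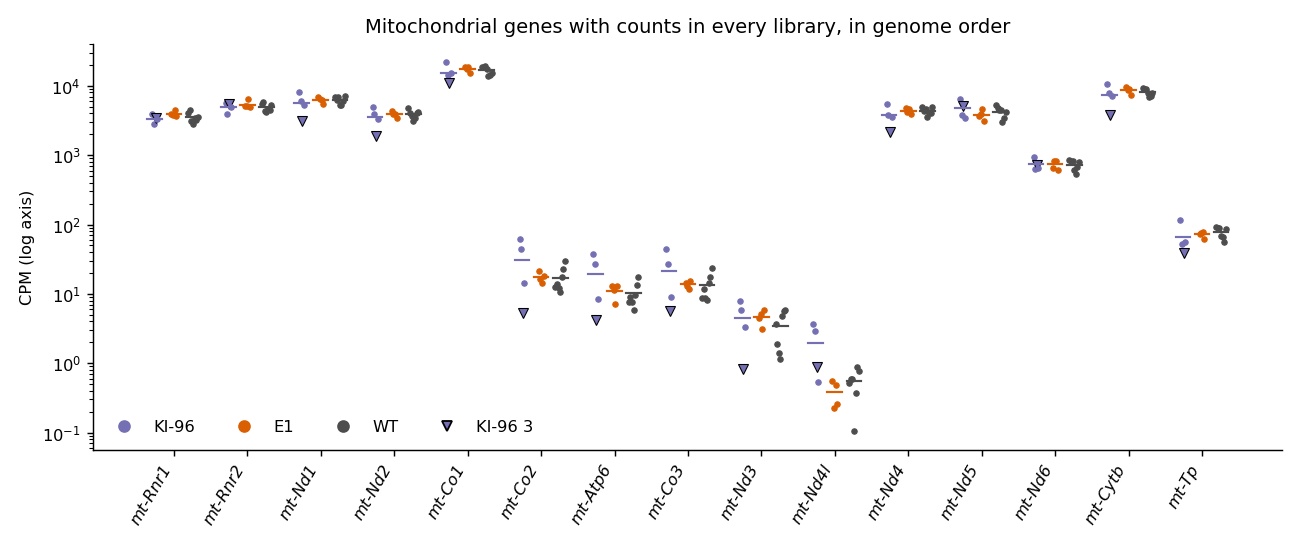
Level of the 15 genes with counts in every library (CPM, log axis, not divided by gene length), in genome order, for KI-96, E1 and WT from left to right; points are libraries, short lines are group means, and the triangle is KI-96 replicate 3. mt-Co2, mt-Atp6, mt-Co3, mt-Nd3 and mt-Nd4l lie below the other mRNAs and the rRNAs, and the triangle lies below all other libraries for mt-Nd1, mt-Nd2, mt-Co1, mt-Nd4 and mt-Cytb but not for mt-Nd5, mt-Nd6 or the rRNAs.

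The rRNAs of the small and large mitochondrial ribosomal subunits come from mt-Rnr1 and mt-Rnr2. They lie near the start of the genome, with the tRNA gene mt-Tv between them. mt-Rnr1 (chrM:70-1024) averaged 3371 ± 428 CPM in KI-96, 3935 ± 372 in E1 and 3523 ± 584 in WT (SD; n = 4, 4 and 7, as for all group values here). By edgeR it differed by -0.06 on the log2 scale (SE 0.14, adjusted p = 0.896) for KI-96 against WT and 0.16 (SE 0.14, adjusted p = 0.734) for E1 against WT. For KI-96 against E1 it was -0.22 (SE 0.15, adjusted p = 0.509).

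mt-Rnr2 (chrM:1094-2675) had 5659, 3865, 5488 and 4867 CPM in KI-96. It had 5064, 5057, 6398 and 4928 CPM in E1, and 4182, 4635 and 5910 CPM (lowest, median, highest) in WT. E1 replicate 3 was the highest of all libraries and the other 3 E1 libraries were close together, inside the WT range. The edgeR log2 fold change was 0.02 for KI-96 against WT, 0.13 for E1 against WT and -0.11 for KI-96 against E1, with adjusted p from 0.768 to 0.967.

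Complex I, NADH dehydrogenase, is a main entry point of the respiratory chain, and 7 of its subunits are encoded by mitochondrial mRNAs. mt-Nd1 (chrM:2751-3707) had 8168, 6082, 3059 and 5329 CPM in KI-96. It had 6977, 6354, 6218 and 5430 CPM in E1, and 5280, 6240 and 7200 CPM in WT. KI-96 held the highest and the lowest library, and the E1 libraries lay within the WT range. The edgeR estimate on the log2 scale was -0.15 (SE 0.19, adjusted p = 0.809) for KI-96 against WT, and it was 0.06 without KI-96 replicate 3 and -0.38 without KI-96 replicate 1. It was -0.01 (SE 0.19, adjusted p = 0.995) for E1 against WT.

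mt-Nd2 (chrM:3914-4951) and mt-Nd4 (chrM:10167-11544) had the same order of libraries at their ends, with KI-96 replicate 1 highest and KI-96 replicate 3 lowest. mt-Nd2 averaged 3506 ± 1272 CPM in KI-96, 3906 ± 393 in E1 and 3896 ± 557 in WT. mt-Nd4 averaged 3739 ± 1352 CPM in KI-96, 4379 ± 417 in E1 and 4327 ± 530 in WT. The edgeR log2 fold changes for KI-96 against WT were -0.15 and -0.21 (SE 0.19 and 0.18, adjusted p = 0.806 and 0.705), and without KI-96 replicate 3 they were 0.06 and -0.02. Without KI-96 replicate 1 they were -0.36 and -0.45.

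mt-Nd5 (chrM:11742-13565) departed from that order. It had 6440, 3830, 5132 and 3448 CPM in KI-96, 3641, 3976, 4607 and 3150 CPM in E1, and 2985, 4448 and 5209 CPM in WT. Here KI-96 replicate 3 was above most libraries, and the highest was again KI-96 replicate 1. The edgeR estimate on the log2 scale was 0.16 (SE 0.18, adjusted p = 0.780) for KI-96 against WT, -0.14 (SE 0.18, adjusted p = 0.835) for E1 against WT and 0.29 (SE 0.21, adjusted p = 0.513) for KI-96 against E1. Without KI-96 replicate 1 it was -0.03 for KI-96 against WT and 0.10 for KI-96 against E1.

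mt-Nd6 (chrM:13552-14070) is the only mRNA gene on the opposite strand to the others, and it overlaps mt-Nd5 by 14 bases. It averaged 738 ± 147 CPM in KI-96, 733 ± 113 in E1 and 727 ± 122 in WT. KI-96 replicate 1 was the highest library, at 947 CPM. The ranges of the 3 groups lay across one another. The edgeR log2 fold changes were 0.02, 0.01 and 0.01 for KI-96 against WT, E1 against WT and KI-96 against E1 (SE 0.15, 0.15 and 0.17, adjusted p from 0.972 to 0.988). With no statement of strandedness, reads of mt-Nd6 cannot be told apart from reads of RNA of the opposite strand.

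Complex III passes electrons to cytochrome c, and mt-Cytb (chrM:14145-15288) encodes its cytochrome b. mt-Cytb had 10631, 7841, 3800 and 7240 CPM in KI-96. It had 9485, 8598, 9120 and 7336 CPM in E1, and 6931, 7932 and 9179 CPM in WT. The KI-96 libraries spread beyond both ends of the WT range, while E1 replicate 1 was the only E1 library above all WT libraries. The edgeR estimate on the log2 scale was -0.15 (SE 0.20, adjusted p = 0.818) for KI-96 against WT, which was 0.07 without KI-96 replicate 3 and -0.37 without KI-96 replicate 1. It was 0.08 (SE 0.19, adjusted p = 0.919) for E1 against WT and -0.23 (SE 0.22, adjusted p = 0.645) for KI-96 against E1.

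Complex IV, cytochrome c oxidase, hands electrons to oxygen, and mt-Co1 (chrM:5328-6872) encodes its catalytic subunit. mt-Co1 had 21702, 14292, 10974 and 15134 CPM in KI-96. It had 18790, 17720, 18783 and 15331 CPM in E1, and 13670, 17475 and 19261 CPM in WT. All 4 E1 libraries lay inside the WT range, and 2 of the KI-96 libraries lay outside it, 1 at each end. Within WT, replicates 5, 6 and 7 had 13670 to 15192 CPM and replicates 1 to 4 had 17475 to 19261 CPM. For mt-Cytb these sets had 6931 to 7846 and 7932 to 9179 CPM, and for mt-Nd5 2985 to 4225 and 4448 to 5209 CPM. For mt-Co2, mt-Atp6, mt-Co3 and mt-Nd3, replicates 5, 6 and 7 lay above replicates 1 to 4, again without overlap. The sets overlapped for the other tested mitochondrial genes. The part of sequencing depth in this was not tested. The edgeR estimate of mt-Co1 on the log2 scale was -0.11 (SE 0.17, adjusted p = 0.844) for KI-96 against WT, 0.08 (SE 0.17, adjusted p = 0.909) for E1 against WT and -0.19 (SE 0.19, adjusted p = 0.661) for KI-96 against E1. For KI-96 against WT it was 0.02 without KI-96 replicate 3 and -0.32 without KI-96 replicate 1.

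Divided by gene length, mt-Co1 was the highest mitochondrial gene in each group, at 10049 ± 2907 RPKM in KI-96, 11428 ± 1054 in E1 and 10844 ± 1496 in WT (RPKM, the CPM value divided by the length of the gene's exons in kilobases). mt-Cytb followed at 6449 ± 2453, 7548 ± 821 and 7133 ± 796 RPKM in KI-96, E1 and WT, and mt-Nd1 at 5914 ± 2203, 6525 ± 664 and 6555 ± 803 RPKM. In WT the ranges of mt-Cytb (6059 to 8024 RPKM) and mt-Nd1 (5517 to 7524 RPKM) overlapped, so these levels did not differ beyond their spread. Every WT library had more mt-Nd1 than the 4641 RPKM of the highest mt-Nd2 value. Next in WT came mt-Nd2 at 3753 RPKM, mt-Rnr1 at 3689, mt-Nd4 at 3140, mt-Rnr2 at 3092, mt-Nd5 at 2315, mt-Nd6 at 1401 and mt-Tp at 1166 RPKM, where each overlapped the next in range except mt-Nd5 and mt-Nd6. The 5 tested genes of the low class averaged from 1.84 RPKM (mt-Nd4l) to 25 RPKM (mt-Co2) in WT. Shared sequence bears on the levels of mt-Nd4 and of the low class. Per 1000 windows that no other transcript holds, in place of gene length, mt-Nd4 had 8619 ± 1055 CPM in WT. mt-Cytb had 7809 ± 872 CPM, and these ranges overlapped, while mt-Co1 had 16754 ± 2311 CPM. By the same measure mt-Co3, mt-Co2, mt-Atp6, mt-Nd3 and mt-Nd4l averaged 13325, 5704, 3377, 582 and 182 CPM in WT. Those values rest on only 1, 3, 3, 6 and 3 unshared windows, so the levels of these genes stay uncertain.

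mt-Tp had 118, 52.0, 39.2 and 55.1 CPM in KI-96. It had 73.2, 76.6, 78.5 and 61.5 CPM in E1, and 56.7, 86.1 and 91.5 CPM in WT. KI-96 replicate 1 lay above all other libraries and the other 3 KI-96 libraries below all WT libraries. The edgeR estimate on the log2 scale was -0.25 (SE 0.23, adjusted p = 0.726) for KI-96 against WT, and it was -0.68 without KI-96 replicate 1 and -0.06 without KI-96 replicate 3. For E1 against WT it was -0.11 (SE 0.23, adjusted p = 0.903). Mature tRNAs are short and heavily modified and are poorly captured by usual RNA-seq libraries. Whether the mt-Tp reads come from the tRNA or from a longer RNA over the same bases was not tested.

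**Figure D3:**
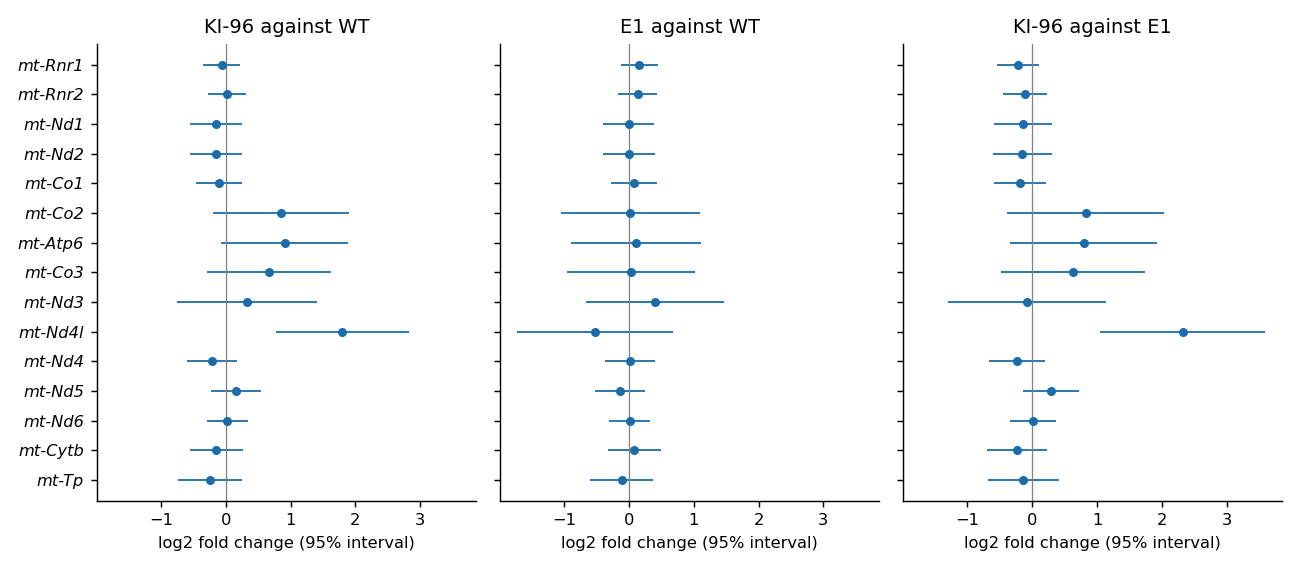
Log2 fold change (edgeR, points) with its 95% interval (lines) of the 15 tested mitochondrial genes in genome order, in KI-96 against WT, E1 against WT and KI-96 against E1. For the abundant genes no interval passes -0.69 or 0.73; those of mt-Co2, mt-Atp6, mt-Co3, mt-Nd3 and mt-Nd4l are wider, and mt-Nd4l in both KI-96 comparisons has an interval above 0 although its adjusted p did not pass.

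The 5 tested genes of the low class had a median log2 fold change of 0.85 for KI-96 against WT, 0.03 for E1 against WT and 0.80 for KI-96 against E1, while that of the 9 abundant genes was -0.11, 0.02 and -0.16. These medians are descriptions with no test.

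mt-Nd4l (chrM:9877-10173), a small membrane subunit of complex I, had the largest log2 fold changes of the 15 genes. It had 50, 44, 16 and 13 counts in KI-96. It had 11, 4, 9 and 5 counts in E1, and 2, 10 and 25 counts in WT. KI-96 replicates 1 and 2 lay above all other libraries, and KI-96 replicates 3 and 4 lay within the WT range in counts. Its level was 1.99 ± 1.51 CPM in KI-96, 0.38 ± 0.16 in E1 and 0.55 ± 0.26 in WT. The edgeR log2 fold change was 1.80 (SE 0.49, adjusted p = 0.309) for KI-96 against WT, -0.52 (SE 0.57, adjusted p = 0.796) for E1 against WT and 2.32 (SE 0.61, adjusted p = 0.183) for KI-96 against E1.

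The KI-96 value of mt-Nd4l was smaller without either of its highest libraries: for KI-96 against WT it was 1.33 without replicate 1 and 1.55 without replicate 2, and 2.04 without replicate 3. For KI-96 against E1 the fold change passed the threshold with DESeq2 (2.36, adjusted p = 0.0274) and in edgeR without KI-96 replicate 4 (2.65, adjusted p = 0.0447), where 0.687% of all genes passed (128 of 18640). Over all alternatives its adjusted p in KI-96 against E1 ran from 0.0274 to 0.539. With KI-96 replicate 4 left out, edgeR called 0 mitochondrial genes in KI-96 against WT, beside 0.0107% of all genes, and 0 in E1 against WT, beside 0%. Its copy Gm10222 had 62, 80, 19 and 9 counts in KI-96, 18, 7, 14 and 16 counts in E1, and 10, 17 and 24 counts in WT, so the same KI-96 libraries were highest. For Gm10222 edgeR gave 1.78 on the log2 scale (SE 0.49, adjusted p = 0.309) for KI-96 against WT and 1.91 (SE 0.58, adjusted p = 0.220) for KI-96 against E1. From which of the identical genes these reads came cannot be told apart.

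mt-Co2 (chrM:7013-7696), the complex IV subunit that receives electrons from cytochrome c, had 836, 673, 96 and 346 counts in KI-96. It had 413, 289, 267 and 347 counts in E1, and 204, 254 and 781 counts in WT. Its copy Gm28661, identical over 681 bases, had 913, 768, 98 and 417 counts in KI-96, 454, 372, 329 and 384 counts in E1, and 209, 334 and 1180 counts in WT. On total counts, gene and copy together had 119 and 91.7 CPM in KI-96 replicates 1 and 2, the highest values, 77.1 and 60.2 CPM in WT replicates 7 and 6, and 10.4 CPM in KI-96 replicate 3, the lowest. The copy took 50.5% to 62.3% of their joint counts in the 15 libraries. The edgeR log2 fold change of mt-Co2 was 0.85 (SE 0.49, adjusted p = 0.560) for KI-96 against WT, which was 0.30 without KI-96 replicate 1 and 1.2 without KI-96 replicate 3, and 0.02 (SE 0.50, adjusted p = 0.993) for E1 against WT.

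mt-Co3 (chrM:8607-9390), a further complex IV subunit, and mt-Atp6 (chrM:7927-8607), the proton-channel subunit of the ATP synthase, followed the same pattern. mt-Atp6 averaged 19.3 ± 15.6 CPM in KI-96, 11.0 ± 2.73 in E1 and 10.1 ± 4.06 in WT. mt-Co3 averaged 21.4 ± 17.7 CPM in KI-96, 13.7 ± 1.5 in E1 and 13.3 ± 5.85 in WT. KI-96 replicate 1 was highest and KI-96 replicate 3 lowest for both. For KI-96 against WT the edgeR log2 fold change was 0.91 for mt-Atp6 (SE 0.46, adjusted p = 0.503) and 0.67 for mt-Co3 (SE 0.45, adjusted p = 0.620). Without KI-96 replicate 1 it was 0.37 for mt-Atp6 and 0.04 for mt-Co3. The copy Gm10925 took 60.7% to 74.6% of the joint counts with mt-Atp6, and Gm28437 took 41.7% to 55.6% with mt-Co3.

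mt-Atp8, the small ATP synthase subunit whose gene overlaps mt-Atp6 by 43 bases, had 7, 13, 1 and 4 counts in KI-96, 2, 4, 5 and 1 counts in E1, and 0, 2 and 6 counts in WT. The overlap with mt-Atp6 is where its reads could be assigned to either gene. It shared 0 windows of 50 or 100 bases with other annotated transcripts. The stretch of chromosome 1 between the copies of mt-Atp6 and mt-Co2, from base 24614651 to base 24614885, was not searched. Whether it holds a copy of mt-Atp8 was not tested.

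mt-Nd3 (chrM:9459-9806), a small complex I subunit, had 109, 90, 15 and 79 counts in KI-96. It had 89, 92, 58 and 112 counts in E1, and 22, 63 and 157 counts in WT. Within WT, replicates 2, 3 and 4 had 35, 24 and 22 counts and the other 4 had 63 to 157. The edgeR log2 fold change was 0.33 (SE 0.51, adjusted p = 0.845) for KI-96 against WT, 0.40 (SE 0.50, adjusted p = 0.819) for E1 against WT and -0.07 (SE 0.57, adjusted p = 0.965) for KI-96 against E1.

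The copy that differs from mt-Nd3 by T3C behaved differently in 3 libraries. Gm28438 had 79, 75, 19 and 80 counts in KI-96 and 94, 91, 63 and 88 counts in E1. In WT it had 1606, 1284 and 1205 counts in replicates 2, 3 and 4, against 59, 44, 85 and 122 counts in replicates 1, 5, 6 and 7. The copy took 97.9% to 98.2% of the joint counts in those 3 libraries and 27.2% to 55.9% in the other 12. On total counts, gene and copy together had 64.8 to 86.6 CPM in those 3 libraries, above the 1.83 to 12.8 CPM of the others. In WT replicates 2, 3 and 4, Gm28437 took 48.1% to 55.6% of the joint counts with mt-Co3, Gm28661 took 50.6% to 56.8% with mt-Co2, and Gm10222 took up to 83.3% with mt-Nd4l, against up to 76.2% in the other 12 libraries. The last pair rests on 2 to 11 mt-Nd4l counts in those 3 libraries. Reads themselves were not analysed here, the mitochondrial haplotype of the mice is not given, and the origin of these counts was not tested. Gm28438 had an edgeR log2 fold change of -3.19 (SE 1.2, adjusted p = 0.394) for KI-96 against WT and -2.92 (SE 1.17, adjusted p = 0.530) for E1 against WT.

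**Figure D4:**
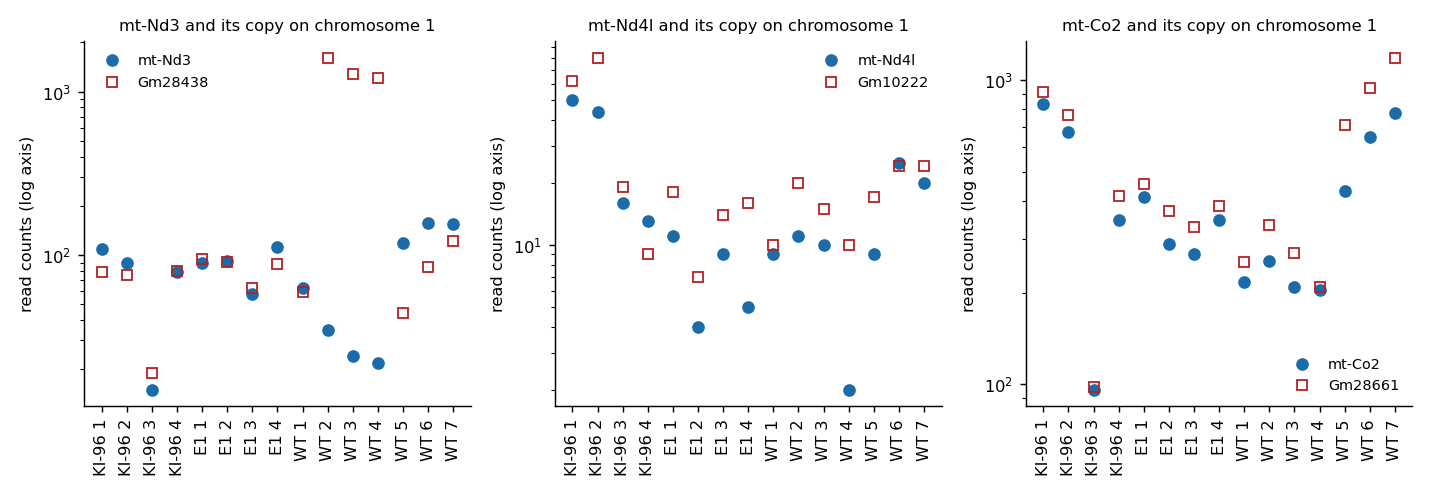
Read counts (log axes) of mt-Nd3, mt-Nd4l and mt-Co2 (filled circles) and of their copies on chromosome 1, Gm28438, Gm10222 and Gm28661 (open squares), in each library, KI-96, E1 and WT from left to right. Gene and copy lie close together in most libraries, but Gm28438 stands at 1205 to 1606 counts in WT replicates 2, 3 and 4 and at 19 to 122 in the other 12.

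Ratios of counts between mRNAs of the complexes, which do not depend on library-size scaling, were compared with a two-sided exact permutation test of log2 ratios, 6 ratios in 3 comparisons, adjusted over the 18 tests. None had a p under 0.05, and the smallest adjusted p was 0.882. The smallest unadjusted p the design allows is 0.00606 for 4 against 7 libraries and 0.0286 for 4 against 4. After adjustment over 18 tests, a single ratio at either value would not pass 0.05. The adjusted test therefore could not call a lone ratio, even one with groups fully apart.

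The complex I to complex IV ratio, mt-Nd1 to mt-Co1, was 0.376, 0.426, 0.279 and 0.352 in KI-96. It was 0.371, 0.359, 0.331 and 0.354 in E1, and 0.302, 0.365 and 0.474 in WT. KI-96 replicate 3 had the lowest value and WT replicate 7 the highest. The difference in mean log2 ratio was -0.08 for KI-96 against WT (exact permutation p = 0.582, adjusted p = 0.882) and -0.09 for E1 against WT (exact permutation p = 0.497, adjusted p = 0.882). Within WT the ratio was 0.389 to 0.474 in replicates 5, 6 and 7 and 0.302 to 0.365 in replicates 1 to 4.

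The complex IV to complex III ratio, mt-Co1 to mt-Cytb, was 2.04, 1.82, 2.89 and 2.09 in KI-96. It was 1.98, 2.06, 2.06 and 2.09 in E1, and 1.94, 2.05 and 2.20 in WT. KI-96 replicate 3 lay above and KI-96 replicate 2 below all other libraries. The difference in mean log2 ratio was 0.09 for KI-96 against WT (exact permutation p = 0.588, adjusted p = 0.882), and -0.05 without KI-96 replicate 3.

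The complex I to complex III ratio, mt-Nd1 to mt-Cytb, came nearest to a separation between KI-96 and E1. It was 0.768, 0.776, 0.805 and 0.736 in KI-96, and 0.736, 0.739, 0.682 and 0.740 in E1. KI-96 replicate 4 lay among the E1 libraries, so the groups overlapped. The difference in mean log2 ratio was 0.09 (pooled SD 0.06, exact permutation p = 0.0857, adjusted p = 0.882). In WT the ratio was 0.666, 0.765 and 0.918, a range that took in both genotypes.

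The remaining ratios set apart a strand, a class of RNA and the ATP synthase. mt-Nd6 to mt-Cytb, a light-strand to heavy-strand ratio, was 0.0890, 0.0795, 0.193 and 0.0897 in KI-96, 0.0696, 0.0967, 0.0909 and 0.0836 in E1, and 0.0760, 0.0913 and 0.102 in WT. mt-Rnr2 to mt-Nd1, an rRNA to mRNA ratio, was 0.693, 0.635, 1.79 and 0.913 in KI-96, 0.726, 0.796, 1.03 and 0.908 in E1, and 0.624, 0.792 and 0.947 in WT. KI-96 replicate 3 was highest of all libraries in both, and the other KI-96 libraries lay within the joint range of E1 and WT. The differences for KI-96 against WT were 0.25 (exact permutation p = 0.497, adjusted p = 0.882) and 0.24 (exact permutation p = 0.515, adjusted p = 0.882) on the log2 scale, and without KI-96 replicate 3 they were -0.04 and -0.08. Without KI-96 replicate 1 they were 0.33 and 0.38. mt-Atp6 to mt-Co1 differed by 0.67 on the log2 scale for KI-96 against WT (exact permutation p = 0.248, adjusted p = 0.882). The difference was 0.37 without KI-96 replicate 1, 0.32 without KI-96 replicate 2 and 1.09 without KI-96 replicate 3. KI-96 replicates 1 and 2 lay above all other libraries. mt-Atp6 shares 99.5% of its windows of 100 bases with other transcripts, so its counts and this ratio are uncertain. Its copy Gm10925 was also highest in KI-96 replicates 1 and 2, at 62.5 and 40.5 CPM on total counts. The part of read assignment in this ratio was not tested.

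**Figure D5:**
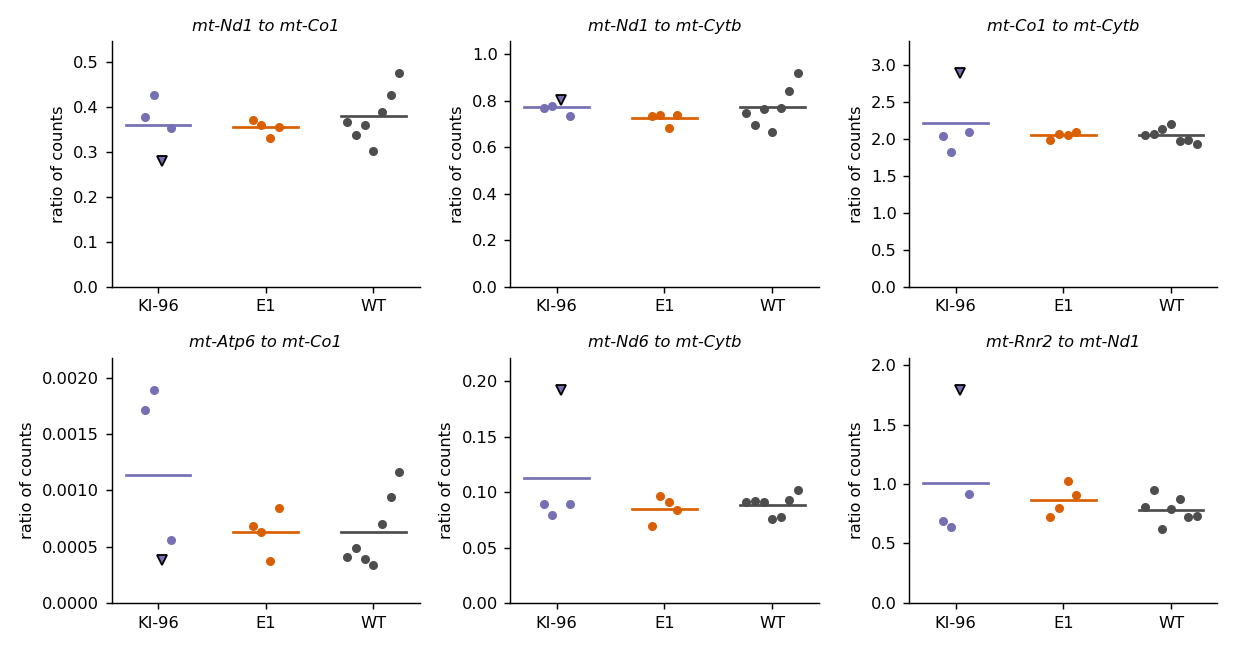
Ratios of read counts between mitochondrial genes in each library (points), with group means (lines), for KI-96, E1 and WT from left to right; the triangle is KI-96 replicate 3 and every vertical axis starts at 0. That library is highest for mt-Co1 to mt-Cytb (2.89), mt-Nd6 to mt-Cytb (0.193) and mt-Rnr2 to mt-Nd1 (1.79), and lowest for mt-Nd1 to mt-Co1 (0.279).

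The nuclear partners of these genes were taken from 8 lists, and edgeR called 0 genes of any list in any comparison. At an unadjusted p under 0.05 it had 12 of the 144 tested genes for KI-96 against WT, 0 for E1 against WT and 13 for KI-96 against E1, where 10.5%, 8.75% and 14.3% of all genes did. For KI-96 against WT, 11 of 36 nuclear complex I subunits, 0 of 9 of complex III, 1 of 11 of complex IV and 4 of 15 of the ATP synthase had a log2 fold change above 0, beside 8754 of all 18278 genes. The medians were -0.09, -0.16, -0.15 and -0.15, with -0.01 over all genes. KI-96 replicate 3 bore on this: without it the counts above 0 were 24 of 36, 4 of 9, 7 of 11 and 10 of 15, and the medians 0.05, -0.01, 0.10 and 0.07. With any of the other 3 KI-96 libraries left out, the counts above 0 were 9 or 10 of 36, 0 of 9, 0 of 11 and 3 or 4 of 15. The summed level of the complex IV list was 725 CPM in KI-96 replicate 3, the lowest KI-96 library, with a KI-96 median of 2152 CPM, an E1 median of 2275 CPM and a WT median of 1992 CPM. The part of its long-transcript excess in this was not tested.

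For E1 against WT, 34 of 36 complex I subunits, 7 of 9 of complex III, 11 of 11 of complex IV and 14 of 15 of the ATP synthase were above 0, beside 9081 of 18278 genes, with medians of 0.12, 0.04, 0.15 and 0.12. Leaving out E1 replicates 2 and 3 and WT replicate 3 gave 33 of 36, 6 of 9, 11 of 11 and 13 of 15, a setting chosen after seeing the data, as was leaving out each KI-96 library for these lists. For KI-96 against E1 the counts were 6 of 36, 0 of 9, 0 of 11 and 2 of 15, and without KI-96 replicate 3 they were 16 of 36, 3 of 9, 4 of 11 and 4 of 15.

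Among single subunits the smallest p values belonged to the following genes, none of them past the threshold in edgeR. For KI-96 against WT, Ndufb4 of complex I differed by -0.38 on the log2 scale (SE 0.15, adjusted p = 0.398), Uqcrfs1, the Rieske iron-sulfur protein of complex III, -0.22 (adjusted p = 0.521), Cox7a2 of complex IV -0.40 (adjusted p = 0.473) and Atp5j2 of the ATP synthase -0.41 (adjusted p = 0.482). For E1 against WT the values were 0.23 for Ndufb10, 0.27 for Uqcrb, 0.23 for Cox5b and 0.17 for Atp5l, with edgeR adjusted p from 0.606 to 0.704. For KI-96 against E1 they were -0.48 for Ndufab1, -0.55 for Uqcrb, -0.41 for Ndufa4 and -0.29 for Atp5f1, with edgeR adjusted p from 0.273 to 0.360.

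Of the genes that copy, transcribe, process and translate mitochondrial nucleic acids, none passed the threshold. In KI-96 against WT, the edgeR value for Mterf3, which acts in mitochondrial ribosome assembly and transcription, was -0.44 on the log2 scale (SE 0.15, adjusted p = 0.362). That for Pnpt1, a polynucleotide phosphorylase of mitochondrial RNA turnover, was -0.31 (SE 0.10, adjusted p = 0.360). Mrrf, a ribosome recycling factor, had 0.19 and Rars2, the mitochondrial arginyl-tRNA synthetase, had -0.21 in that comparison (edgeR adjusted p = 0.499 and 0.433). In E1 against WT, Polrmt, the mitochondrial RNA polymerase, had -0.16 (edgeR adjusted p = 0.633) and Lrpprc, which stabilises mitochondrial mRNAs, had -0.18 (adjusted p = 0.572). In that comparison Mtrf1, a release factor, had 0.24 and Wars2, the mitochondrial tryptophanyl-tRNA synthetase, had -0.26 (edgeR adjusted p = 0.654 and 0.612). Set against E1, KI-96 had -0.47 for Mterf3, -0.28 for Mtpap, the mitochondrial poly(A) polymerase, -0.13 for Mtif2, an initiation factor, and -0.23 for Rars2, with edgeR adjusted p from 0.252 to 0.506.

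Median log2 fold changes of the 20 replication and transcription genes, the 21 tested RNA processing genes, the 15 translation factors and the 17 aminoacyl-tRNA synthetases were -0.09, -0.11, 0.01 and 0.05 for KI-96 against WT. They were 0.03, -0.03, 0.05 and -0.01 for E1 against WT, and -0.08, -0.12, -0.06 and -0.01 for KI-96 against E1. The RNA processing list summed to 571 to 645 CPM in KI-96, 626 to 658 in E1 and 643 to 678 in WT, and 16 of its 21 genes were below 0 in KI-96 against WT, beside 9524 of all 18278 genes. Without KI-96 replicate 3 they were 17 of 21. Slirp, listed there too, did not pass the filter.

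Lars2, the mitochondrial leucyl-tRNA synthetase, had 388, 324, 3635 and 198 CPM in KI-96, 736, 347, 446 and 429 CPM in E1, and 195, 550 and 960 CPM (lowest, median, highest) in WT, and was named after its values were seen. KI-96 replicate 3 stood far above every other library for this gene. Its log2 fold change was 1.02 for KI-96 against WT (edgeR, SE 0.67, adjusted p = 0.613), and without KI-96 replicate 3, a setting chosen after seeing the data, it was -0.89 (edgeR, SE 0.39, adjusted p = 0.433). Whether it goes with the rRNA share of that library was not tested.

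Markers of other cells differed in level between these libraries. Red blood cell markers summed to 79.3 to 138 CPM in KI-96, 58.9 to 504 in E1 and 77.1 to 212 in WT. Oligodendrocyte markers summed to 8762 to 14213 CPM in KI-96, 6767 to 16264 in E1 and 10660 to 15317 in WT. Astrocyte markers summed to 2934 to 3845, 2909 to 3636 and 3033 to 3824 CPM in KI-96, E1 and WT, and microglia markers to 234 to 353, 245 to 297 and 241 to 338 CPM. Choroid plexus markers summed to 35.9 to 91.7 CPM in KI-96, 26.7 to 86.8 in E1 and 44.3 to 408 in WT. Their part in the mitochondrial values was not tested. With the 3 libraries of high cortical marker level left out, edgeR called 0 mitochondrial genes in each comparison.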

How the data were processed

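The authors deposited raw counts, whole numbers of reads for each gene and mouse; the submitters' processing notes name STAR, HTSeq, GRCm38 and DESeq2 1.24.0, with no role or setting. Of 54232 identifiers, 54165 matched GENCODE M21 without version. Total counts ran from 14678565 to 26388542 per library, and replicates are separate mice. Within groups every pair of libraries differed by more than sampling noise (smallest chi-square per degree of freedom 8.65). Pairs with KI-96 replicate 3 had 67.1 to 120, and the highest other pair had 41.9.

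edgeR 4.0.16 kept 18278 genes (filter by group, minimum count of 10), scaled them with TMM and fitted a robust quasi-likelihood model to all 15 libraries with group as the factor; 3 contrasts were tested two-sided, Benjamini-Hochberg adjusted over all genes tested, threshold 0.05. The fit was tested on simulated data, with known changes in genes drawn from all those tested. Changes of 1.5-fold were recovered in 31.3% of genes for KI-96 against WT, 41.5% for E1 against WT and 16.7% for KI-96 against E1. For changes of 3-fold these values were 86.2%, 76.6% and 80%. CPM and RPKM were computed from the counts, log2 CPM with a prior count of 2. Alternatives were DESeq2 1.42.0, limma-voom (limma 3.58.1), other scalings, no filter, a replicate block, only the groups compared, other genes for the ratios, and libraries left out. Ratios used exact permutation tests (scipy 1.17.1). Shared windows of 100 and 50 bases were looked up in GENCODE M21 transcripts.

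Every mitochondrial gene is reported; from each of the 8 nuclear lists, the gene with the smallest p in each comparison is named. Pseudogenes were named after their values were seen. The members, the 8 nuclear lists and the 7 marker lists were chosen with earlier results of these data known.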

Additional observations from a re-analysis of the deposited data

Results flagged for a closer look

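Within groups of 4 to 7 libraries, 111 sets of values were checked for a library far from the nearest of the others, judged by Dixon's test at the 95% level. Chance alone picks out about 1 in 20 such sets, and 6 were picked out.

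KI-96 replicate 3 was picked out 3 times. Its summed complex I to complex III mRNA ratio was 3.40, with 2.25 to 2.44 in the other KI-96 libraries. Its mt-Nd6 to mt-Cytb ratio was 0.193, with 0.0795 to 0.0897 in the others. Gm13339, a nuclear copy of part of mt-Nd2 on chromosome 2, had 0.269 CPM on total counts, with 0.0636 to 0.0856 in the others, which rests on 5 counts against 1 or 2.

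E1 replicate 3 was picked out 3 times as well. mt-Rnr2 had 6398 CPM there, with 4928 to 5064 CPM in the other E1 libraries. Its mt-Nd1 to mt-Cytb ratio was 0.682, with 0.736 to 0.740 in the others. Gm28438, the copy of mt-Nd3, had 3.28 CPM on total counts, with 4.80 to 5.00 in the others. E1 replicate 3 is also 1 of the 3 libraries with high cortical markers, at 775 CPM, and the part of this in its values was not tested.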

How the results depend on the processing

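The count of mitochondrial genes past the threshold was 0 in KI-96 against WT and in E1 against WT under every alternative. In KI-96 against E1 it was 1 with DESeq2 and ranged from 0 to 1 when single libraries were left out; the gene was mt-Nd4l both times, and it passed without KI-96 replicate 4. Of 1125 recomputed log2 fold changes of single genes, 1119 moved by less than 1 SD between libraries, 4 moved further and 2 passed the threshold. With other genes of the same complexes, the log2 difference for mt-Nd1 to mt-Co1, taken as mt-Nd4 to mt-Co3, was -0.63 in KI-96 against WT and -0.51 in KI-96 against E1. That for mt-Co1 to mt-Cytb, with the low-count mt-Co3 in place of mt-Co1, was 0.58 in KI-96 against WT, 0.0596 in E1 against WT and 0.52 in KI-96 against E1. That for mt-Nd1 to mt-Cytb, with mt-Nd4, was 0.0134 in KI-96 against E1. That for mt-Nd6 to mt-Cytb, taken as mt-Nd6 to mt-Nd5, was -0.12 in KI-96 against WT, 0.15 in E1 against WT and -0.26 in KI-96 against E1. The cause was not tested. The other results on shares and ratios moved by less than 1 SD. With a single library left out, no share or ratio could move by 1 SD in groups of this size, so this is no measure of stability there. The KI-96 against WT difference in share still ran from -0.993 to -0.0764 percentage points over these settings. Of the 1119 single-gene values, 674 also came from leaving out 1 library, where so large a move was hardly possible. Over all genes, DESeq2 called 72 in KI-96 against WT, 58 in E1 against WT and 206 in KI-96 against E1, where edgeR called 0, 1 and 0. Leaving out E1 replicate 4 gave 257 in E1 against WT and 190 in KI-96 against E1, leaving out KI-96 replicate 4 gave 128 in KI-96 against E1, and leaving out WT replicate 1 gave 11 in KI-96 against WT and 12 in E1 against WT.

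Replicate numbers of the labels gave no steady pairing of the libraries. Same-numbered libraries correlated between -0.10 and 0.19 in their deviations from the group means, and different-numbered ones between -0.36 and 0.54. The highest pair was same-numbered for KI-96 against E1 (0.19, replicates 4) and for KI-96 against WT (0.18, replicates 2). For E1 against WT it was different-numbered (0.54, E1 replicate 2 and WT replicate 3). With the replicate block, edgeR called 0 mitochondrial genes in each comparison, beside 6, 4 and 0 of all genes in KI-96 against WT, E1 against WT and KI-96 against E1. Low counts limit mt-Nd4l, mt-Nd3 and mt-Atp8 most, since a library held as few as 2, 15 and 0 counts. mt-Nd4l and mt-Nd3 share 98.5% and 97.6% of their windows of 100 bases with other transcripts. The parts of shared sequence and of sequencing depth in these counts were not tested.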
